A study of Mus musculus with 3 samples.

Results

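The T cell receptor and T cell signalling genes described here are Cd3d, Cd3e, Cd3g, Cd4, Cd8a, Cd2, Cd28, Lck and Ms4a4b. They were found on the arrays by gene name among the non-control probes. All 9 genes were present, out of 21307 named genes, with 17 of 41174 probes. The probes occupy 44 spots on each array, since 1 probe each of Cd4, Cd8a and Cd28 is printed 10 times, and 5 genes have several probes. Probes entered the test when Cy5 or Cy3 was well above background on 2 or 3 of the 3 arrays, which held for 16 of the 17. All 9 genes entered the test among 22043 features.

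RNA of mouse aortas was hybridised to 3 two-colour Agilent oligonucleotide arrays. Each array carried 1 individual Plk1(+/-) sample labelled with Cy5, and a pool of 3 wild-type, Plk1(+/+), samples labelled with Cy3 served all arrays. Both genotypes were on a 129/CD1 background and 3 to 5 months old. Plk1, heterozygous in the Plk1(+/-) samples, encodes a mitotic kinase. The design asks which aortic transcripts differ between the genotypes. The dyes were never swapped, so dye and genotype cannot be told apart. The pool counts as 1 control sample, and a test of the ratio against 0 does not include the spread among wild-type samples. The labels call the 3 samples biological replicates. They do not say how the allele was made, and their growth protocol describes embryonic stem cells although the tissue is given as aorta. All ratios below are log2 of Plk1(+/-) over the wild-type pool.

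The T cell receptor recognises peptides on MHC molecules, and its variable chains have no signalling motif of their own. They are assembled with the invariant CD3 chains, whose cytoplasmic tails carry ITAMs, tyrosine motifs that the kinase Lck phosphorylates. CD4 and CD8 bind the MHC molecule and bring Lck to the receptor, CD2 and CD28 add adhesion and costimulation, and resident T cells of an artery are found mainly in its adventitia and the surrounding fat and lymphoid tissue.

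The probes of Cd2, Cd3d and Cd3g, and 2 of the 4 probes of Ms4a4b, have positions in the files that span more genomic bases than the 60 of the probe, so each matches sequence on both sides of a gap. They are shown because such a probe reads joined transcript sequence rather than one contiguous genomic stretch, and because all 5 gave higher signal in samples 2 and 3 than in sample 1. Positions are those of the files, in build mm7, and sequences are printed 5′ to 3′. Capitals in the Cd3d probe mark the 45 bases that encode an ITAM pattern. Capitals in the Ms4a4b probes mark the 15 bases with which one ends and the other begins.
Cd3d, A_51_P285206, plus strand, chr9:44920433-44920664: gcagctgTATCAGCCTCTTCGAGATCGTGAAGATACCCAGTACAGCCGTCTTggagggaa
Cd3g, A_51_P260889, minus strand, chr9:44907978-44908562: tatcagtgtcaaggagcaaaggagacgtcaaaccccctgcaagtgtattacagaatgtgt
Cd2, A_51_P126067, minus strand, chr3:101074696-101077875: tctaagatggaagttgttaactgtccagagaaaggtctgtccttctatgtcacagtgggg
Ms4a4b, A_51_P136289, plus strand, chr19:11134887-11137970: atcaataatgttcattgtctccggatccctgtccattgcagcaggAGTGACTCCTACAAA
Ms4a4b, A_51_P136288, plus strand, chr19:11137956-11139315: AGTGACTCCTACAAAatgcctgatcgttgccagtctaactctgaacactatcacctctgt

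Signal well above background was found for 77.0% to 80.8% of probe spots in Cy5 and 66.0% to 69.0% in Cy3. Precision is limited by the number of arrays. The targeted gene Plk1 had ratios of -0.06, -0.08 and 0.42 in Plk1(+/-) samples 1, 2 and 3, averaging 0.10 ± 0.28 (SD, n = 3; limma adjusted p = 0.705). No lower Plk1 signal was thus detected, and its 1 probe may lie outside the changed part of the allele, so it does not check the labels. Markers of the labelled tissue were present: 10 of 10 genes each for smooth muscle, endothelium and adventitial fibroblasts were kept. The limma fit called 204 features past the adjusted threshold of 0.05 (8 higher and 196 lower in Plk1(+/-)), of which 172 had a saturated spot. No T cell probe was saturated.

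Most of the T cell genes had far higher signal in Plk1(+/-) samples 2 and 3 than in the wild-type pool, and sample 1 lay close to the pool. The median ratio of the 9 genes was 0.16, 1.53 and 1.81 in samples 1, 2 and 3, against 0.03, 0.01 and 0.04 over all features. The limma test over all features called 0 of the 9 genes at an adjusted p under 0.05, and 0.0363% of features were called higher. At an unadjusted p under 0.05, limma gave 6 of 9 higher (Cd2, Cd28, Cd3d, Cd3g, Lck and Ms4a4b), beside 9.17% of all features, and 0 of 9 lower, beside 9.79%. Cd28 entered on the Plk1(+/-) signal alone, since the pool was not well above background on its probe. Requiring both dyes well above background on all arrays gave 5 of 8 higher, without Cd28. There, 3480 of 18246 features had such a p, in both directions. The ratio was above 0 on all 3 arrays for 8 of 9 genes, beside 26.3% of features, with Cd8a the exception. It was above 1 on at least 2 arrays for 6 of 9 (Cd2, Cd3d, Cd3g, Cd8a, Lck and Ms4a4b), beside 1.05% of features.

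The outcome of the test depended on sample 1. Without it, 5 of 9 genes (Cd3d, Cd3g, Cd8a, Lck and Ms4a4b) passed the limma test at adjusted p-values of 0.040 to 0.044, all higher in Plk1(+/-), where the fit called 175 features, 57 of them higher. Without sample 2, or without sample 3, 0 passed and the count at an unadjusted p under 0.05 was 1 of 9 (Ms4a4b) each time. Beside it, 1984 of 22043 features without sample 2 and 3096 without sample 3 had such a p, in both directions. With arrays centred on their median in place of loess, 5 of 9 passed (Cd2, Cd3d, Cd3e, Lck and Ms4a4b), but that setting called 9761 features and shifted the median of all features to 0.23.

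**Figure D1:**
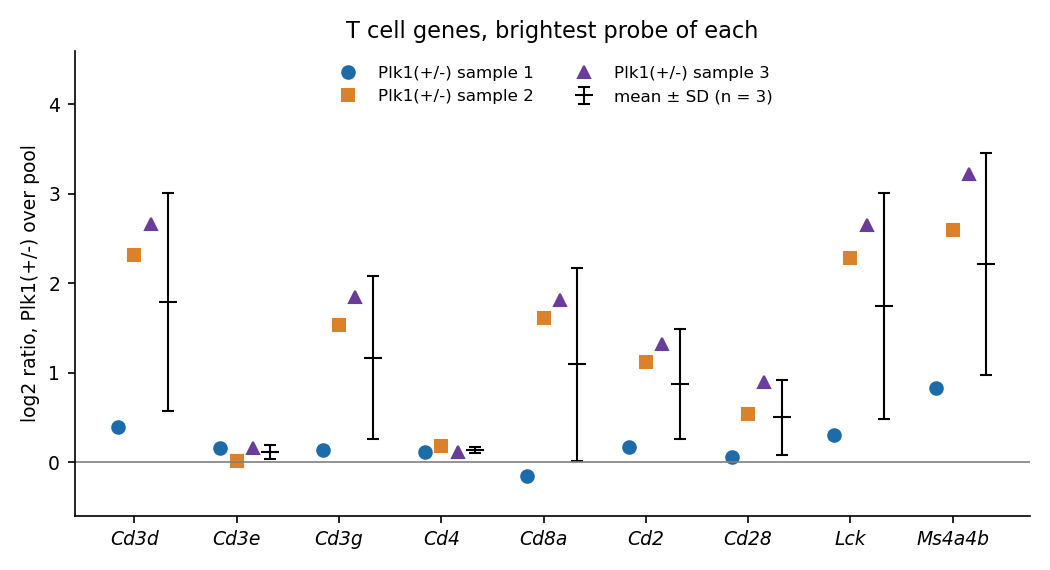
Log2 ratio of Plk1(+/-) over the wild-type pool (y axis) for the brightest probe of each of the 9 T cell genes (x axis), with 1 point per sample and the mean ± SD of 3 samples. Samples 2 and 3 lie above 1 for 6 genes, sample 1 lies below 1 for all 9, and Cd3e and Cd4 lie near 0 in all samples.

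Cd3d encodes the delta chain of CD3. Its mean spot signal was 567, 3073 and 4363 in Plk1(+/-) samples 1, 2 and 3, against 202, 266 and 272 for the pool on the same arrays. The normalised ratios were 0.39, 2.32 and 2.66, averaging 1.79 ± 1.22 (SD, n = 3; limma adjusted p = 0.204), or 3.46-fold. All 3 samples exceeded the pool, and samples 2 and 3 lay about 2 log2 units above sample 1. Without sample 1 the mean was 2.49.

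Cd3g, the gamma chain of CD3, showed the samples in the same order at a smaller size. Its signal was 396, 1153 and 1529 in samples 1, 2 and 3, against 176, 180 and 181 for the pool. The ratios were 0.13, 1.53 and 1.84, a mean of 1.17 ± 0.91 (limma adjusted p = 0.229). Sample 1 was near the pool and samples 2 and 3 were clearly above it.

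Cd3g and Cd3d are neighbours on chromosome 9 and are read outward from start sites 1355 bases apart in GRCm38.p6. The 250 bases before each start are shown because both genes were high in the same samples, and both sequences are those of RefSeq. Capitals mark matches on either strand to 3 motifs. The letters AGGAAG are a core bound by ETS factors. RUNX factors are known to bind TGTGGT, and GATA factors bind sequences such as AGATAA.
Cd3g, minus strand, chr9:44980432-44980681: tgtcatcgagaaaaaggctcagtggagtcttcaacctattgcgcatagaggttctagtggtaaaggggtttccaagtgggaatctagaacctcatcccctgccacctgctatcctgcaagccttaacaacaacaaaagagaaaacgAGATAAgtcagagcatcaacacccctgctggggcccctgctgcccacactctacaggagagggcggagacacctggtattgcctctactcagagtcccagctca
Cd3d, plus strand, chr9:44981536-44981785: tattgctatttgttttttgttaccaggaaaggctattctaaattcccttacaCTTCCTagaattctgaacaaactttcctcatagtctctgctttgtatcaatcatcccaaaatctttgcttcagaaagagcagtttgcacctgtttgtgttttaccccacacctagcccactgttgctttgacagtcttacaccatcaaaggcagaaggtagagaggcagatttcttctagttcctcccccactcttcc
The Cd3g window held 1 AGATAA and the Cd3d window 1 AGGAAG, on the reverse strand. Of 7 promoter entries for Cd3d, Cd3e, Cd3g, Cd8a, Lck and Ms4a4b, 4 held AGGAAG, 1 held TGTGGT and 1 held AGATAA. Among all 32851 promoters of the same length these letters occurred in 29.5%, 14.0% and 9.99%, counted over the 250 bases before each start. The matches are letters in a window and were not tested as binding sites.

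Cd3e, the epsilon chain, is read by 2 probes that gave different pictures. The brighter (A_51_P455681, chr9:44933516-44933575, minus strand, mm7) had 820, 915 and 746 in Plk1(+/-) samples 1, 2 and 3, against 321, 391 and 287 for the pool. Its ratios were 0.16, 0.02 and 0.16, a mean of 0.11 ± 0.08 (limma adjusted p = 0.442), so the samples differed little from the pool or from each other. The dimmer (A_52_P86404, chr9:44938246-44938305) had 95.2, 148 and 170 in samples 1, 2 and 3, against 73.5, 73.8 and 75.7 for the pool.

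On that dimmer Cd3e probe the pool was not well above background on any array, so only a bound can be given: the Plk1(+/-) signal was at least 1.05-fold higher. Such bounds set the mean Plk1(+/-) level against the lowest level that was well above background, or the probe's own pool level where that was higher. They hold for the mean over samples, not for each sample. On the dim probes of Cd3e, Cd4 and Cd8a and the main Cd28 probe, Cy5 was well above background on only 2 of 3 arrays. The measured ratios were 0.04, 0.34 and 0.64. The offset of 50 in the background correction draws ratios of dim probes towards 0. In the scanner's own log ratio, without it, the same probe read 0.00, 1.93 and 2.16, and the brighter probe 0.15, 0.01 and 0.07. The scanner's errors for the dimmer probe were 1.80, 0.80 and 0.55 log2 units, so the sizes of its ratios are uncertain. The order of samples on the dimmer probe therefore resembled that of Cd3d and Cd3g, and that on the brighter did not.

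Cd4 and Cd8a encode the co-receptors for MHC class II and class I, and their bright probes differed. Cd8a had 259, 1165 and 1498 in Plk1(+/-) samples 1, 2 and 3, against 148, 177 and 184 for the pool. Its ratios were -0.15, 1.61 and 1.81, a mean of 1.09 ± 1.08 (limma adjusted p = 0.284), with sample 1 below the pool and the other samples above it. A second Cd8a probe, printed 10 times (A_52_P443334), gave -0.17, 1.42 and 1.82, with SDs among its spots of 0.13, 0.13 and 0.27, so the distance between sample 1 and the others far exceeded the spot error. The third Cd8a probe was not well above background in the pool on any array and gave -0.25, 0.71 and 1.17. Its mean over samples was 1.46-fold the pool's own measured level, which is not a lower bound, and sample 1 lay below the pool.

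The bright Cd4 probe, printed 10 times as well (A_52_P383089, chr6:124894079-124894138, minus strand, mm7), had 240, 291 and 254 in samples 1, 2 and 3, against 122, 129 and 121 for the pool. Its ratios were 0.11, 0.18 and 0.12, a mean of 0.13 ± 0.04 (limma adjusted p = 0.345). The SDs among its spots were 0.15, 0.08 and 0.15, and the 3 samples did not differ beyond them. The dim Cd4 probe (A_51_P236573, chr6:124891774-124891832) was not well above background in the pool on any array and gave 0.08, 0.43 and 0.49, at least 1.08-fold higher. In the scanner's log ratio it read 0.00, 2.10 and 1.77, with errors of 2.12, 0.76 and 0.47, while the bright probe read 0.16, 0.22 and 0.14. For Cd3e and Cd4 alike, the probe that stands for the gene in the fit is thus the one with the flat ratio, and which probe reads the T cell transcript was not tested.

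**Figure D2:**
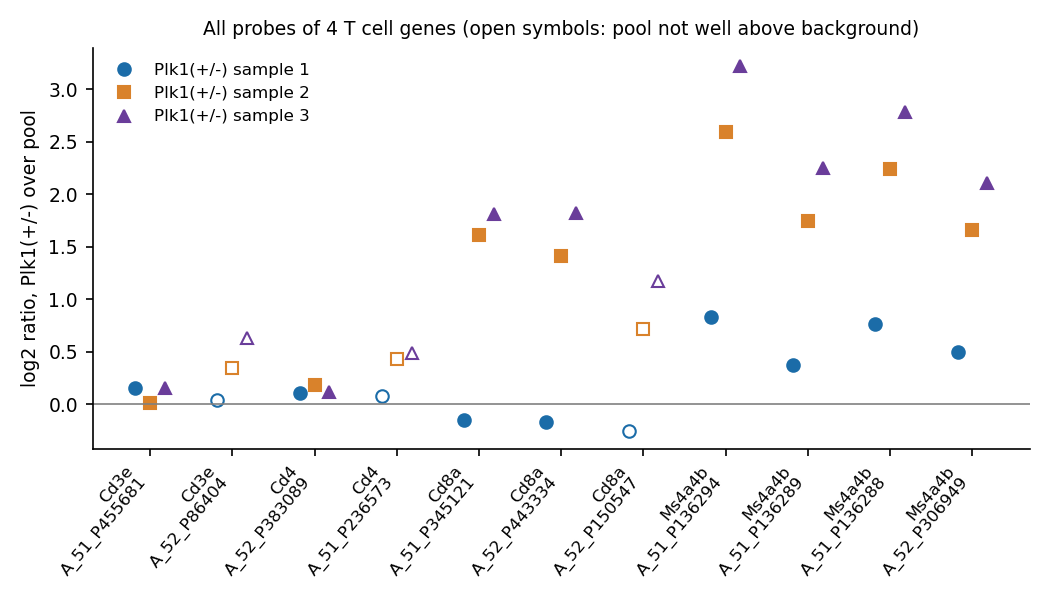
Log2 ratio of Plk1(+/-) over the wild-type pool (y axis) for every probe of Cd3e, Cd4, Cd8a and Ms4a4b (x axis, the probe used in the fit first), with 1 point per sample. Open symbols mark probes on which the pool was not well above background on all arrays. The bright probes of Cd3e and Cd4 lie between 0.02 and 0.18, and all probes of Cd8a and Ms4a4b have sample 1 lowest and sample 3 highest.

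Cd2 encodes an adhesion receptor that in mice binds CD48. Its signal was 379, 804 and 1019 in Plk1(+/-) samples 1, 2 and 3, against 168, 170 and 175 for the pool. The ratios were 0.17, 1.12 and 1.32, a mean of 0.87 ± 0.62, or 1.83-fold (limma adjusted p = 0.217). Samples 2 and 3 again lay apart from sample 1.

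Cd28 encodes the costimulatory receptor for CD80 and CD86, and its probes were dim. The main probe had 99.2, 176 and 209 in samples 1, 2 and 3, against 76.0, 74.5 and 72.9 for the pool, which was not well above background on any array. The Plk1(+/-) signal was at least 1.22-fold higher. The ratios of 0.06, 0.54 and 0.90 had a mean of 0.50 ± 0.42 (limma adjusted p = 0.255), with SDs among its spots of 0.16, 0.07 and 0.13. The scanner's log ratio gave -0.05, 2.10 and 3.14, a mean of 1.73, with errors of 1.63, 0.58 and 0.55. The size of the Cd28 difference thus depends on how weak signal is treated. Median centring in place of loess gave a mean of 0.04. The second Cd28 probe was the one not kept, since Cy5 was well above background on only 1 array.

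Lck encodes the Src-family kinase that starts signalling from the receptor. It had 630, 2354 and 3964 in Plk1(+/-) samples 1, 2 and 3, against 232, 213 and 252 for the pool. The ratios of 0.31, 2.28 and 2.66 had a mean of 1.75 ± 1.26, or 3.36-fold (limma adjusted p = 0.215), nearly those of Cd3d in each sample. All 3 samples exceeded the pool.

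Ms4a4b encodes a membrane-spanning protein of the MS4A family that is found on mouse T cells, and had the highest mean ratio of the 9 genes. Its brightest probe had 1023, 3470 and 6263 in samples 1, 2 and 3, against 254, 245 and 258 for the pool. The ratios were 0.83, 2.59 and 3.22, a mean of 2.21 ± 1.24, or 4.64-fold (limma adjusted p = 0.176). Its 4 probes had means between 1.42 and 2.21 and were all positive in all samples. The pair whose sequences overlap by 15 bases gave 0.37, 1.75 and 2.25, and 0.77, 2.24 and 2.78.

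**Figure D3:**
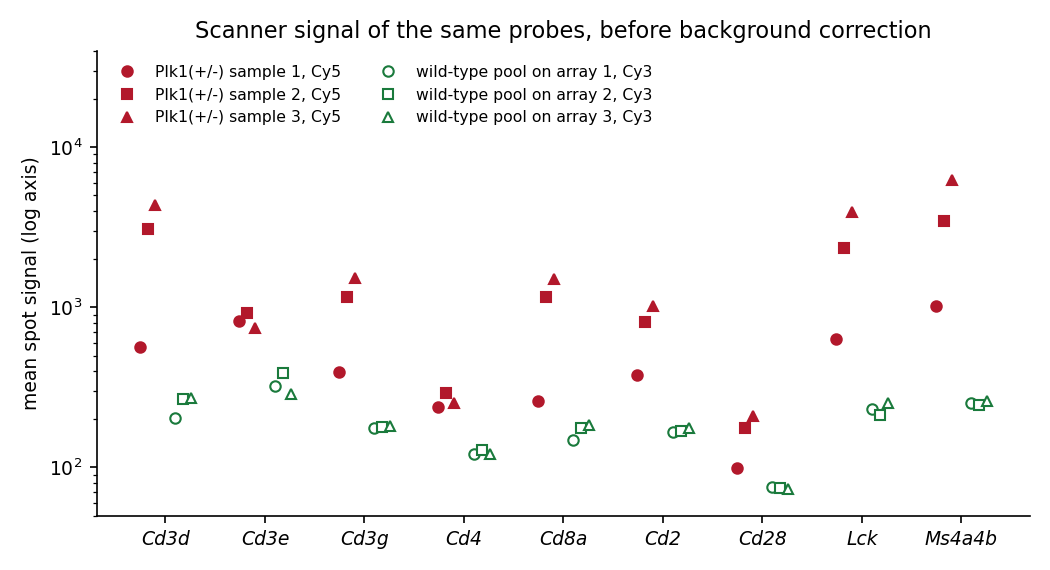
Mean spot signal before background correction (y axis, log scale) of the brightest probe of each of the 9 T cell genes (x axis), with the Plk1(+/-) samples in Cy5 on the left and the wild-type pool on the same arrays in Cy3 on the right. The pool's signals stay close together, while the Plk1(+/-) signals of Cd3d, Lck and Ms4a4b spread over severalfold. Raw signals of the dyes are not on a common scale.

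Ordered by mean ratio, Ms4a4b came first, then Cd3d, Lck, Cd3g, Cd8a and Cd2. Cd28 has no place in this order because its pool signal was not well above background, and Cd4 and Cd3e have none because their probes disagree. Within samples, Ms4a4b exceeded Cd3d by 0.44, 0.27 and 0.56, and Lck exceeded Cd3g by 0.18, 0.75 and 0.81. The differences of Cd3d from Lck were 0.09, 0.04 and 0.00. Those of Cd3g from Cd8a (0.28, -0.08 and 0.03) and of Cd8a from Cd2 (-0.32, 0.49 and 0.49) changed sign between samples. None of these differences was tested. For these ordered genes, most of the spread over samples lay in the Plk1(+/-) channel. The pool's signal on the 16 kept probes had a coefficient of variation over arrays of 1.32% to 15.9%. The highest was on the bright Cd3e probe, where the pool's 321, 391 and 287 spread no less than the 820, 915 and 746 of Plk1(+/-). Of the 16 kept probes, 15 had their lowest ratio in sample 1 and 15 their highest in sample 3. Both held at once with sample 2 between for 14 of 16, as for 22.2% of all features. The samples are replicates of 1 genotype, and nothing in the labels sets them apart. In a bulk sample, more T cells and more RNA per T cell cannot be told apart.

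Most other genes of the receptor complex and the T cell surface were also lowest in sample 1: 18 of 22 measured, beside 31.6% of all features. Of 29 listed, 23 were on the array and 22 were kept. Limma gave 0 past the adjusted threshold. At an unadjusted p under 0.05 it gave 15 of 22 higher, beside 9.17% of all features, and 0 lower, beside 9.79%. The list's median ratio was 0.14, 0.70 and 1.09 in samples 1, 2 and 3. Cd247, the zeta chain, had 0.47, 1.11 and 1.51 on its brightest probe, a mean of 1.03 ± 0.52 (limma adjusted p = 0.171). Its other kept probes had smaller ratios, at -0.19, 0.27 and 0.64, and 0.11, 0.45 and 0.68. The pool was not well above background on them. Cd5 and Cd6, scavenger-receptor-type regulators of T cells, had 0.33, 1.68 and 1.95, and 0.35, 1.97 and 2.41. Cd48, which encodes the ligand of CD2, had 0.21, 0.83 and 1.34, Cd27 had 0.11, 1.17 and 1.31, and the inhibitory receptor gene Pdcd1 had 0.30, 0.77 and 1.57. Cd244a, a receptor mainly of natural killer cells, had 0.53, 0.20 and 0.63 on its brighter probe. The other kept Cd244a probe had -0.01, -0.08 and 0.24, with the pool not well above background. Thy1, a surface marker of mouse T cells that fibroblasts and neurons also make, was highest in sample 1 on its brighter probe, at 1.13, 0.40 and 0.22. Its other kept probe had a different order, at 0.85, 0.90 and 1.01. Cd226 was near 0 in all samples on its brightest probe, at -0.09, -0.01 and -0.08. Its other kept probes varied, at 0.24, -0.07 and 0.03, at 0.24, 0.08 and 0.43, and at -0.20, 0.06 and -0.15.

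Probes that the files name for the receptor's own chains differed between chains and within the beta chain. All 3 kept Tcra probes had ratios above 1 on at least 2 arrays, with means of 1.13 to 1.81, and the brightest had 0.41, 2.36 and 2.68. Of 5 kept probes named Tcrb-V13, 3 from the same sequence record did so, with means of 1.36 to 1.58. The others had means of 0.31 and 0.21. None of 2 Tcrb-J, 3 Tcrg and 1 Tcrg-C probes was above 1 on at least 2 arrays. Their means were 0.11 to 0.47 for Tcrb-J, 0.07 to 0.45 for Tcrg and 0.16 for Tcrg-C. On some of the low Tcrb-V13, Tcrb-J and Tcrg-C probes the pool was not well above background, where the offset draws ratios towards 0. Receptor probes can share sequence among segments, so their values are uncertain for any single segment.

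The kinases, adaptors and effectors downstream of the receptor included 27 kept genes of 30 listed, with 0 past the limma adjusted threshold. At an unadjusted p under 0.05, limma gave 18 of 27 higher, beside 9.17% of all features, and 0 lower, beside 9.79%. Ubash3a and Themis among the 18 entered on the Plk1(+/-) signal alone. Their median ratio was 0.11, 0.53 and 0.92. Zap70, the kinase that docks on phosphorylated ITAMs, had 0.22, 1.27 and 1.55, and Lat, the membrane adaptor it phosphorylates, had 0.10, 1.69 and 1.93. Lcp2, the adaptor SLP-76, had 0.42, 1.11 and 1.62, and Skap1 had 0.34, 1.79 and 2.06. Rasgrp1, which activates Ras, had 0.42, 1.04 and 1.72 on its brighter probe, but -0.33, 0.28 and 0.15 on its other kept probe. Ptprc, the leukocyte phosphatase CD45, had 0.39, 1.47 and 2.12, and Sh2d1a, the adaptor SAP, had 0.23, 1.13 and 1.41.

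Some signalling genes lacked the distance between sample 1 and samples 2 and 3. Ubash3a, a phosphatase-related suppressor of receptor signalling, had 0.57, 0.52 and 0.68, a mean of 0.59 ± 0.08, and the lowest adjusted p of the list (limma, 0.0719), although the pool was not well above background on its probe. Nfatc1, a transcription factor also used outside T cells, had 0.23, 0.24 and 0.29, and Pag1, an adaptor of lipid rafts, had 0.75, 0.27 and 0.65. Fyn, the other Src-family kinase of T cells, had -0.09, 0.09 and 0.15, Plcg1 had -0.15, 0.15 and 0.15, and Nfatc2 had -0.05, -0.13 and -0.09.

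Transcription factors, homing receptors and cytokine receptors of T cells had a median of 0.14, 0.88 and 1.16 over 22 kept unsaturated genes, of which limma gave 0 past the adjusted threshold. At an unadjusted p under 0.05, 12 of 22 were higher, beside 9.17% of all features, and 0 lower, beside 9.79%. Lef1, a transcription factor of naive T cells, had 0.25, 2.05 and 2.58. Ccr7, a chemokine receptor that guides cells into lymph nodes, had 0.28, 1.71 and 1.68. Tbx21, the factor T-bet, had 0.52, 1.05 and 1.10, Cxcr3 had 0.53, 1.14 and 1.67, and Cxcr6 had 0.46, 1.11 and 1.44. The cytokine receptor chains Il2rb and Il2rg had 0.18, 1.34 and 1.76, and 0.16, 0.98 and 1.30. Klf2 was on a saturated probe and was called lower (limma adjusted p = 0.043), so it has no fold here. Its other probe read -0.67, 0.03 and 0.28.

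Probes of 1 gene also disagreed outside the 9 genes. Among 33 genes of these lists with several kept probes, 3 had a probe above 1 in samples 2 and 3 and another below 0.25 in both, marks that were set after their values were seen. The values of Cd8b1 and Cd6 are given. Cd8b1, the beta chain of CD8, read 0.03, 0.18 and -0.26 on its brighter probe and -0.28, 1.91 and 2.37 on the other. Cd6 was the reverse case, with the values above on the brighter probe and 0.17, 0.03 and 0.03 on the other.

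Markers of B cells and of leukocytes in general were also lowest in sample 1, in 16 of 16 and 15 of 15 genes, beside 31.6% of all features. Of the 16 B cell and plasma cell genes, 11 had ratios above 1 on at least 2 arrays, beside 1.05% of features, and the median was 0.05, 1.09 and 2.11 in samples 1, 2 and 3. Their summed signal was 28965 to 101866 in Plk1(+/-) samples, against 24568 to 27106 for the pool, and that of the 9 T cell genes was 2965 to 12726, against 2391 to 2769. Summed signals here and below are normalised levels, not the spot signals given for single genes above. Blk, a Src-family kinase of B cells, had 0.25, 0.40 and 0.57, and Cd74, the MHC class II invariant chain, had 0.47, 0.66 and 1.44. Pax5, the B cell lineage factor, had 0.31, 1.51 and 2.34, and Fcrla had 0.39, 1.35 and 2.15. The 15 pan-leukocyte genes had a median of 0.32, 1.00 and 1.53 and summed to 20968 to 68105 in Plk1(+/-) samples, against 16938 to 18878 for the pool. Among them Itgb2, an integrin chain, had 0.40, 0.50 and 0.92, Cd52 had 0.63, 1.58 and 2.53, and Coro1a, an actin regulator of leukocytes, had 0.53, 1.37 and 2.13.

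Lymph node stroma and high endothelial venule genes had a median of -0.21, 0.94 and 1.42 over 11 genes, and 5 were above 1 on at least 2 arrays, beside 1.05% of features. Cr2 and Fcer2a of this list are also in the B cell list, and Ltb is made by lymphocytes. Without these 3, the medians of the remaining 8 genes were -0.27, 0.40 and 0.93, and 3 were above 1 on at least 2 arrays. The summed signal of all 11 genes, with these 3 included, was 8631 to 41869 in Plk1(+/-) samples, against 9974 to 11578 for the pool. Ltb, a lymphotoxin chain, had 0.35, 2.27 and 2.70, Cxcl13, a chemokine of B cell follicles, had -0.29, 2.04 and 2.09, and Fut7 had 0.23, 0.61 and 1.65. Glycam1, a secreted ligand made by high endothelial venules and named after its values were seen, had -1.18, 2.52 and 3.85, with the Plk1(+/-) signal well above background on 2 of 3 arrays. Madcam1, an addressin of mucosal venules, had -0.24, -0.12 and 0.08, with the pool not well above background. The part of these cells or structures in the T cell values was not tested.

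Thymus genes had medians near 0 in all 3 samples. The 9 kept thymocyte genes had a median of 0.10, -0.02 and 0.09, with a summed signal of 33223 to 39945 in Plk1(+/-) samples, against 31162 to 35641 for the pool. Rag1, which rearranges receptor genes in immature lymphocytes, had -0.77, -0.29 and 0.03, Dntt, which adds bases at their junctions, had -0.74, -0.02 and 0.11, and Ptcra, the pre-T receptor chain, had 0.13, -0.12 and 0.09. Rag2 was not kept. The 7 kept thymic epithelium genes had a median of -0.01, 0.08 and 0.18, with Prss16, Tbata and Epcam not kept. Cd83 was above 1 in samples 2 and 3, at -0.01, 1.16 and 1.63, and is also known from dendritic and B cells. Aire, the thymic regulator of self-antigen expression, had -0.05, 0.72 and 1.29, with the pool well above background on 1 array.

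Among other immune cells, the 15 cytotoxic T and natural killer genes had a median of 0.25, 0.22 and 0.51, and the genes varied. Eomes, a factor of cytotoxic cells, had 0.28, 0.40 and 0.54, with the pool not well above background, and Klrb1c, a receptor of natural killer cells, had 0.31, 0.33 and 0.26. Nkg7, a granule protein gene, had 0.34, 1.25 and 1.70, and the granzyme gene Gzma had 0.55, -0.35 and 0.51. The 8 dendritic cell genes had 0.10, 0.33 and 0.72, with Irf8, which B cells also use, at 0.43, 1.60 and 2.38. The 14 macrophage and monocyte genes had 0.03, -0.10 and 0.16, and the 10 granulocyte and mast cell genes had -0.12, -0.16 and -0.12, so neither list had the distance between sample 1 and samples 2 and 3.

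Among lists of the vessel wall and its surroundings, the highest median in any sample was 0.20. The median was -0.36, -1.13 and -1.05 for 7 unsaturated smooth muscle genes, -0.31, -0.46 and -0.33 for 9 adventitial fibroblast genes and 0.05, -0.11 and -0.21 for 10 endothelial genes. It was 0.01, 0.20 and -0.22 for 4 unsaturated adipocyte genes, -0.49, -1.09 and -0.81 for 5 red cell genes and -0.70, -0.94 and -2.82 for 8 skeletal muscle genes. Smooth muscle summed to 30066 to 54058 in Plk1(+/-) samples, against 76867 to 77991 for the pool. Whether the tissue taken with the aorta differed between samples was not tested.

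**Figure D4:**
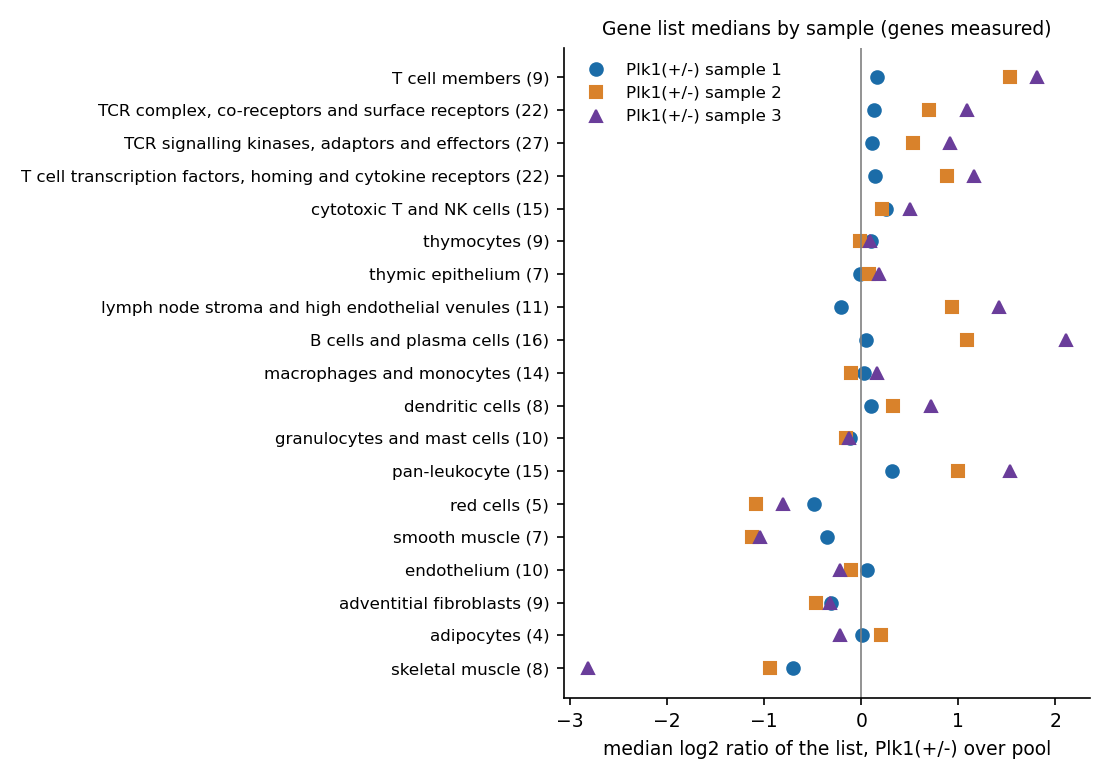
Median log2 ratio of Plk1(+/-) over the wild-type pool (x axis) for each gene list (y axis, with the number of unsaturated genes measured), with 1 point per sample. The T cell gene, T cell pathway, B cell, pan-leukocyte and lymph node lists have samples 2 and 3 between 0.53 and 2.11. Their sample 1 medians lie between -0.21 and 0.32. The cytotoxic T and natural killer list has 0.25, 0.22 and 0.51 in samples 1, 2 and 3, and thymocyte medians lie between -0.02 and 0.10.

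The named genes nearest to the median pattern of the 9 T cell genes, by Euclidean distance over the 3 samples, were Il18r1, Rasal3, P2ry10, Tnfrsf18, Fam169b and Cnr2. Il18r1, a receptor chain for interleukin-18, was nearest at a distance of 0.05, with 0.21, 1.55 and 1.82. Rasal3, at 0.06, had 0.20, 1.56 and 1.84, and Tnfrsf18, the receptor GITR, had 0.23, 1.54 and 1.94. The likeness rests on 3 samples that share 1 pool.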

How the data were processed

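Per the file headers, the authors' deposited spot intensity values come from Agilent Feature Extraction, version 9.5.3.1, and the mean signals are not background-subtracted. The deposited log10 ratio of Cy5 over Cy3 is background-subtracted and dye-normalised, per the file headers. The authors' series values are log2 ratios, and their centring step is not given in the sources used here. Mean signals were corrected by normexp (offset 50), normalised by within-array loess with control spots at weight 0 and averaged over the spots of a probe, leaving out outlier spots, in limma 3.58.1 under R 4.3.3. The brightest kept probe stood for a gene. For the bounds and the summed signals, levels of each dye were also normalised between arrays (Aquantile). A two-sided test of the ratio against 0 (lmFit, eBayes) was adjusted by Benjamini-Hochberg over the 22043 features. The fit was tested on simulated data, and no result of that test is given here. Names were updated through GRCm38.p6: 22951 probes were named by accession, 6659 by a current symbol and 3109 by a synonym, while 8455 stayed as in the files. The 9 genes and all lists were chosen with earlier results of these data known. Named were the 9 genes, Plk1, the 6 nearest genes, and genes of each list with the smallest p, up to 8 for a pathway list (plus Cd247, Zap70, Lat, Tcra and Cd8b1) and up to 4 for a cell type. Others named, such as Glycam1, Madcam1, Thy1, Cd226, Fyn, Plcg1, Nfatc2, Gzma, Cr2, Dntt, Ptcra and Rag2, were chosen after their values were seen. Some genes that these rules take are not reported here.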

Additional observations from a re-analysis of the deposited data

How the results depend on the processing

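The median ratio of the 9 T cell genes (1.09) stayed positive under all 15 alternatives run and moved by less than its SD over samples, which is nearly as large as the median. It was 0.73 to 1.69 when leaving out 1 replicate, highest without replicate 1. The single-gene ratios kept their sign in all comparisons with an alternative, 114 on the same side of the threshold and 10 newly past it. The count of T cell genes past the adjusted threshold was 0, but 5 with median centring in place of loess (lowest adjusted p 0.027) and 0 to 5 when leaving out 1 replicate, 5 of them without replicate 1. The count at an unadjusted p under 0.05 was 6, against 1 to 7 when leaving out 1 replicate. Features past the threshold numbered 204, against 9761 with median centring (73.3% of calls higher, in place of 3.92%), 125 with the scanner's log ratio, 0 without saturated features (3806 at an unadjusted p under 0.05) and 0 to 175 when leaving out 1 replicate. Without replicate 2 and without replicate 3, limma called 0, with 1984 and 3096 at an unadjusted p under 0.05. Calls rest on 3 ratios per gene and 1 shared pool. The dimmest kept probe of each gene, added after seeing the data, gave a median of 0.87 with 0 past the adjusted threshold and 7 at an unadjusted p under 0.05. The cause of these shifts was not tested. No paired analysis was possible because the samples form 1 group measured against the same pool. Signal over background limits Cd28 and the dim probes of Cd3e, Cd4 and Cd8a, on which the pool was not above background.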
